A study of Mus musculus with 46 samples.

Results

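A group of 6 genes labelled stress-inducible, Mdfic, Osgin2, Hilpda, Trp53inp1, Gem and Pnrc1, was followed through a bulk RNA-seq experiment on mouse embryonic fibroblasts (MEFs). The label is only a name for the group, since Pnrc1 rose with borrelidin in neither genotype. The members were found by their Ensembl identifiers among the 55416 rows of the table of raw counts, and all 6 of the 6 named genes were there. Mdfic and Osgin2 had been picked because they rose with borrelidin in these same libraries, so the members were chosen in part by their measured levels under the drug, and the responses of these genes are given below as a description and without a test. The intervals printed for their responses show only the spread between libraries, do not allow for this choice and are not a test. A member had to reach a mean of 5 CPM, the count scaled to a common library total. The lowest of the 6, Gem, had a mean of 16.1 CPM, and no member fell under the limit.

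The experiment crossed 2 genotypes with 2 treatments. Wild type MEFs were a purchased line, and the ATF4 KO MEFs were a line made in house with CRISPR-Cas9 aimed at Atf4. Each was exposed for 7 h either to 600 nM borrelidin, a natural product that inhibits threonyl tRNA synthetase, or to its vehicle, 1% DMSO. There were 11 wild type vehicle, 12 wild type borrelidin, 11 ATF4 KO vehicle and 12 ATF4 KO borrelidin libraries, 46 in all. The labels call them biological replicates without naming separate lines, so the p-values measure only the spread between these libraries, and a difference between the genotypes cannot be told apart from any other difference between the 2 lines. The question put by the design was which responses to the inhibitor need ATF4.

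When an amino acid is not loaded onto its tRNA, the kinase GCN2 phosphorylates the initiation factor eIF2, general translation slows, and the transcription factor ATF4 is translated more. This is the amino acid branch of the integrated stress response. ATF4 pairs with C/EBP proteins and binds composite elements near its target genes. Cells under stress also switch on genes through p53, through the hypoxia-inducible factors, through NRF2 and through immediate early signalling, and several of the members are known from such routes. MDFIC carries a domain shared with the inhibitor of MyoD family transcription factors. OSGIN2 is a relative of the oxidative stress-induced growth inhibitor OSGIN1. HILPDA is a hypoxia-inducible protein of lipid droplets that inhibits the lipase ATGL. TP53INP1 is induced by p53 and takes part in cell death and autophagy. GEM is a small GTPase of the RGK family, first known as a mitogen-induced gene. PNRC1 is a nuclear coactivator that also binds the mRNA decapping machinery.

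Promoters are shown for the members that the reference table holds, since the binding motifs named above can be read directly in them. Of the 6 members, 3 matched a promoter of 250 bases before to 50 bases after a transcription start (RefSeq, GRCm38.p6): Mdfic on the plus strand at chr6:15720411-15720710, Hilpda on the plus strand at chr6:29272376-29272675, with a further start whose window is at chr6:29272238-29272537, and Pnrc1 on the minus strand at chr4:33248738-33249037. Trp53inp1, Gem and Osgin2 had no entry. Each sequence is written 5′ to 3′ in its gene's direction, and capitals mark the motif matches described after it.
Mdfic: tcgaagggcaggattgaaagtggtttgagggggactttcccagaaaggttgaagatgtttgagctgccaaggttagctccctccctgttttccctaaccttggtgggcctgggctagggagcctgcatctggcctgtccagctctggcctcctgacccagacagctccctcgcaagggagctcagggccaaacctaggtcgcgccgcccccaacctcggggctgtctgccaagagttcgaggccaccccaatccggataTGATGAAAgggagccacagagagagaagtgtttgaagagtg
Hilpda: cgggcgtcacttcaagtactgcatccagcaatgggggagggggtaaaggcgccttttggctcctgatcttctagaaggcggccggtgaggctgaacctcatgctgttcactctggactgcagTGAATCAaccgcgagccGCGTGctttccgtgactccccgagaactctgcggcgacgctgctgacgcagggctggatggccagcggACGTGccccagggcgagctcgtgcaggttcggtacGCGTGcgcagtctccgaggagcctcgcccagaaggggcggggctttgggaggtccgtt
Pnrc1: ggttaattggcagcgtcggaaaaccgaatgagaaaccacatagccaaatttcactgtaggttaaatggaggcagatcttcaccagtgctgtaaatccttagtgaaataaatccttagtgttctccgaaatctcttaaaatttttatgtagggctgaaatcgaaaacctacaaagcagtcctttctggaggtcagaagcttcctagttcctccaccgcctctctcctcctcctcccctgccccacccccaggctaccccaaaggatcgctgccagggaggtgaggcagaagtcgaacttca
The motifs were searched on both strands. The Mdfic promoter held one match, TGATGAAA, to the C/EBP-ATF composite element TGATGNAA, beginning 9 bases after the start. The form searched is looser than the ATF4 element given by the study. Read in this direction, the study's element allows only A or C at the N position and ends with a further base, T or C. The base after the Mdfic match is G, so the match is not a full match to the study's element. The form searched was present in 3.97% of the 32851 promoters in the table, and the study's element was not counted. The Hilpda window held the hypoxia response element ACGTG once, 43 bases before the start, and its other form GCGTG at 111 and at 8 bases before it, next to one AP-1 site TGAATCA (form searched, TGANTCA) at 128 bases before it. ACGTG was found in 19.6%, GCGTG in 32.4% and TGANTCA in 7.81% of all promoters, and ACGTG also lies inside the G-box CACGTG, which was found in 7.15%. The window of the other Hilpda start, which overlaps the printed one, held the same AP-1 and upstream GCGTG letters. The Pnrc1 window held none of the 7 motifs searched. The remaining motifs were the cyclic AMP response element TGACGTCA, found in 1.79% of promoters, and the antioxidant response element TGACNNNGC, found in 12.4%. A match is a run of letters and no more.

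Libraries held between 2047362 and 3467765 counts assigned to genes, with a median of 2869299. Values are CPM with library totals scaled by the trimmed mean of M values (TMM), and log2 fold changes, their standard errors (SE) and p-values are from the quasi-likelihood test of edgeR over all 46 libraries, adjusted by Benjamini-Hochberg over the 8986 rows that passed the filter on low counts. Row identifiers matched their genes in 2 chromosome windows, one on chromosome 4 (5644090 to 55532466 in GRCm38) and one on chromosome 6 (13834458 to 31563981), which hold the members and 280 tested rows, and genes are named from these alone. The Atf4 row lies outside them, so the targeted transcript was not analysed here. On the second principal component, 14 libraries stood apart from the others of their group: wild type vehicle 1 to 8, ATF4 KO vehicle 1 to 3 and ATF4 KO borrelidin 1 to 3. They are called the lower set, and results that rest on them are given with and without them. All wild type borrelidin libraries were in the higher set, so only 3 wild type vehicle libraries were of the same set as the treated ones. The study describes its own second component as separating the treatments. Here every wild type borrelidin library scored above every wild type vehicle library on it. Leaving out the lower set thus keeps the 3 wild type vehicle libraries that scored nearest to the treated ones. How far this choice alone changes a response was not tested. Of 12 mesenchymal markers, 5 lie in the windows, and all 5 passed the filter. Their summed level ran from 391 to 575 CPM in wild type borrelidin libraries, against 611 to 863 in wild type vehicle, 905 to 1233 in ATF4 KO vehicle and 668 to 831 in ATF4 KO borrelidin libraries, and most of it was caveolin 1 (Cav1). Markers of other cell types were low: the 8 in the windows summed to 4.95 to 22.0 CPM in wild type and 13.7 to 54.4 CPM in ATF4 KO libraries, and 3 passed the filter. The sums of both lists are CPM by library totals without TMM scaling, so they are not on the scale of the single marker levels. The row of Pax5, a B cell factor, had means of 0.322 CPM in wild type vehicle, 0.157 in wild type borrelidin, 9.57 in ATF4 KO vehicle and 16.7 CPM in ATF4 KO borrelidin libraries. The part of either marker list in the results was not tested. In bulk RNA, fewer cells of a kind and less RNA per cell cannot be told apart.

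Mdfic (ENSMUSG00000041390, GRCm38 chromosome 6, 15720661 to 15802169, plus strand) was 2.90-fold higher with borrelidin than with vehicle in wild type cells and at nearly the same level with and without it in ATF4 KO cells. In wild type vehicle libraries its lowest, median and highest levels were 111, 128 and 161 CPM, and in wild type borrelidin libraries 293, 391 and 448 CPM. In ATF4 KO vehicle libraries they were 107, 154 and 173 CPM, and in ATF4 KO borrelidin libraries 135, 163 and 187 CPM. All 12 treated wild type libraries were above every other library of the experiment (1.83% of all tested rows had this order, and 4.06% were higher in treated than in vehicle wild type libraries without overlap), while in ATF4 KO cells treated and untreated libraries overlapped almost fully. The log2 fold change was 1.53 (95% interval 1.39 to 1.68) in wild type and 0.10 (-0.04 to 0.24) in ATF4 KO, so that ATF4 KO cells showed 6.5% of the wild type log2 response. The difference between the 2 responses was 1.43 (1.23 to 1.64). These intervals do not allow for the choice of the gene by its rise and are not a test. Without the lower set the wild type response was 1.32 and the difference 1.26, and ATF4 KO cells then showed 4.8% of the response. Within the ATF4 KO lower set, 3 against 3 libraries, the response was 0.26 (0.00 to 0.52), and within the higher set 0.06 (-0.04 to 0.16). The difference under vehicle could be tested, although it uses the same wild type vehicle libraries as the rise: Mdfic was at 133 ± 16.5 CPM (SD, n = 11) in wild type and 150 ± 18.6 CPM (n = 11) in ATF4 KO, a log2 difference of 0.17 that did not pass (edgeR adjusted p = 0.063). It was 0.042 (edgeR adjusted p = 0.79) without the lower set and 0.047 (adjusted p = 0.61) with the set as a block.

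Osgin2 (ENSMUSG00000041153, GRCm38 chromosome 4, 15997121 to 16013888, minus strand) was higher with borrelidin in both genotypes, and by less in ATF4 KO. Its lowest, median and highest levels were 46.04, 56.5 and 69.8 CPM in wild type vehicle and 115, 162 and 172 CPM in wild type borrelidin libraries. In ATF4 KO they were 51.6, 67.0 and 73.8 CPM with vehicle and 73.9, 121 and 134 CPM with borrelidin. Treated and untreated libraries did not overlap in either genotype. Of all tested rows 4.06% were higher without overlap in wild type and 1.1% in ATF4 KO. In ATF4 KO the gap between the treated and untreated libraries was narrow. The log2 fold change was 1.43 (1.24 to 1.62) in wild type and 0.81 (0.62 to 1.00) in ATF4 KO, which is 56.5% of the wild type log2 response. The difference was 0.62 (0.36 to 0.89). It was 0.46 (0.21 to 0.71) without the lower set and 0.33 (0.12 to 0.55) with the library set as a block, where the share kept was 65% and 70.2%. Here too the intervals do not allow for the choice of the gene. In ATF4 KO the 3 lower-set libraries went from 52.5 ± 1.08 to 76.3 ± 3.31 CPM (SD, n = 3 each), and the higher-set libraries from 68.5 ± 5.18 (n = 8) to 124 ± 6.73 CPM (n = 9). The treated ATF4 KO libraries thus fell into separate levels by set, and in both sets they were above the vehicle libraries of that set. Under vehicle the genotypes, at 57.6 ± 6.23 and 64.1 ± 8.64 CPM (SD, n = 11 each), did not pass the test (log2 difference 0.16, edgeR adjusted p = 0.21), and the sign turned with the set as a block (-0.050, adjusted p = 0.67). As for Mdfic, this test uses the same wild type vehicle libraries as the rise for which the gene was picked. A processed pseudogene, Gm11870, lies inside the gene on the same strand, shares no exon base with it, and had a mean of 1.27 CPM (without TMM scaling).

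**Figure D1:**
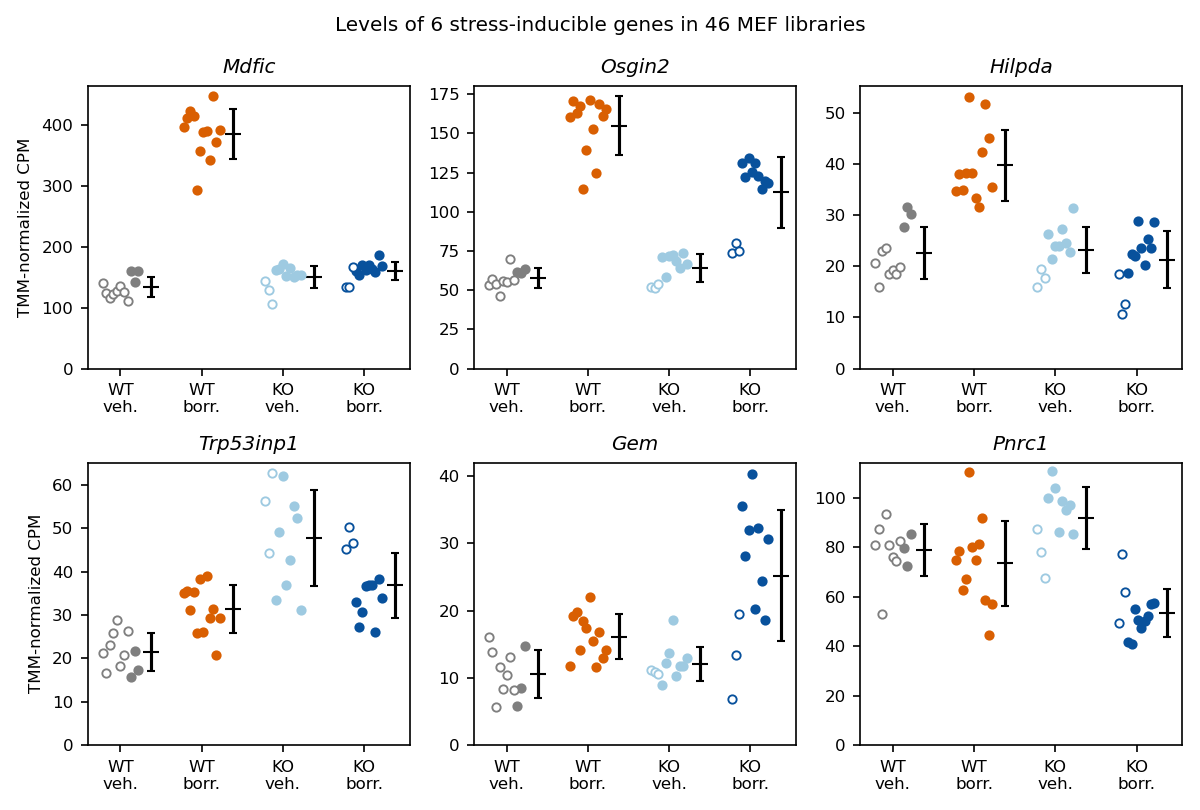
TMM-normalized CPM of each gene (linear axis from 0) in the 46 libraries, 1 point a library, for wild type (WT) and ATF4 KO (KO) MEFs with vehicle (veh.) or borrelidin (borr.). Open points are the 14 libraries of the lower set, and black bars are the mean ± SD of each group. Mdfic is raised in treated wild type libraries (293 to 448 CPM) and not in treated ATF4 KO libraries (135 to 187 CPM), whereas Osgin2 is raised in both.

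Of the 4 members not picked for their response, 3 rose in wild type cells with borrelidin (Hilpda, Trp53inp1 and Gem) and Pnrc1 did not pass, by edgeR at an adjusted p under 0.05. All members, and the gene lists used below, were chosen with earlier results of these data known. The calls on these 4 are thus not those of an unselected set. With 59.4% of all tested rows called in that comparison, and 26.5% called as higher, 3 of 4 is no distinction by itself. Of the 280 tested rows of the windows 59.3% were called, 117 of them as higher. In ATF4 KO cells 3 of the 4 also passed, Gem as a rise and Trp53inp1 and Pnrc1 as falls, where 30.3% of rows were called, 15% as higher and 15.3% as lower. In the windows 43.2% of the 280 rows were called, 73 as higher and 48 as lower. The 2 responses differed for Hilpda, Trp53inp1 and Pnrc1, 3 of 4 and all with the higher value in wild type, against 33.6% of rows called and 16.5% called in that direction. In the windows the share was higher, with 42.9% of the 280 rows called, 77 of them in that direction. At the stricter adjusted p under 1e-10 used by the study, edgeR called none of the 4 in wild type, in ATF4 KO or for the difference, where 2.11%, 0.49% and 0.501% of rows were called. At an unadjusted p under 0.05 it called 3 of 4 in each of the 3 comparisons, and at 1e-10 DESeq2 called 1 member in ATF4 KO, Pnrc1, while limma voom called none.

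Hilpda (ENSMUSG00000043421, GRCm38 chromosome 6, 29272488 to 29275446, plus strand), whose promoter holds the hypoxia element letters shown above, passed the test as a rise in wild type and did not pass in ATF4 KO. Its lowest, median and highest levels were 16.03, 20.5 and 31.5 CPM in wild type vehicle and 31.7, 38.1 and 53.2 CPM in wild type borrelidin libraries. In ATF4 KO they were 15.96, 24.0 and 31.4 CPM with vehicle and 10.7, 22.3 and 28.8 CPM with borrelidin. The treated wild type libraries lay just above the vehicle ones with no overlap, as for 4.06% of all tested rows, and the ATF4 KO groups overlapped. The log2 fold change in wild type was 0.81 ± 0.13 (SE, edgeR adjusted p = 1.5e-06), and in ATF4 KO it was -0.13 ± 0.13 (adjusted p = 0.51). The responses differed by 0.94 ± 0.19 (edgeR adjusted p = 1.5e-04). These sizes depended on the library sets. The 8 lower-set wild type vehicle libraries were at 19.9 ± 2.49 CPM (SD) and the 3 higher-set ones at 29.8 ± 1.93 CPM. Without the lower set the wild type response was 0.41 (edgeR adjusted p = 0.041) and the difference 0.49 (0.13 to 0.86, adjusted p = 0.075). Within the higher set of wild type alone the response was 0.40 (edgeR adjusted p = 0.097). With the set as a block the values were 0.38 (edgeR adjusted p = 0.0079) and 0.53 (adjusted p = 0.0070). The comparison of treated cells did not depend on the sets in this way. Treated ATF4 KO libraries, at 21.3 ± 5.58 CPM (SD, n = 12), were all below treated wild type libraries, at 39.8 ± 7.00 CPM (n = 12). That log2 difference was -0.90 ± 0.13 (SE, edgeR adjusted p = 7.4e-08), and -0.73 (adjusted p = 3.3e-08) without the lower set. Of all rows, 6.09% were lower in ATF4 KO without overlap there.

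Trp53inp1 (ENSMUSG00000028211, GRCm38 chromosome 4, 11156431 to 11174379, plus strand) moved in opposite directions in the genotypes, from different starting levels. Its lowest, median and highest levels were 15.8, 21.2 and 28.9 CPM in wild type vehicle and 20.7, 31.2 and 38.9 CPM in wild type borrelidin libraries. In ATF4 KO they were 31.1, 49.1 and 62.8 CPM with vehicle and 26.1, 36.9 and 50.3 CPM with borrelidin. In wild type, 9 of 12 treated libraries were above every vehicle library, and in ATF4 KO 3 of 12 were below every vehicle library. Every ATF4 KO vehicle library was above every wild type vehicle library. The log2 fold change was 0.55 ± 0.13 (SE, edgeR adjusted p = 2.9e-04) in wild type and -0.37 ± 0.12 (adjusted p = 0.014) in ATF4 KO. The responses differed by 0.92 ± 0.17 (edgeR adjusted p = 8.0e-05), and by 1.23 (adjusted p = 2.0e-04) without the lower set. The wild type response was then 0.79, and 0.84 with the set as a block. The fall in ATF4 KO lost its call with no filter on low counts (-0.35, edgeR adjusted p = 0.067) and within the lower set of 3 against 3 libraries (-0.14, adjusted p = 0.58).

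The untreated lines already differed in Trp53inp1. The gene stood at 21.4 ± 4.31 CPM (SD, n = 11) in wild type and 47.8 ± 11.1 CPM (n = 11) in ATF4 KO, 2.23-fold higher, with a log2 difference of 1.16 ± 0.13 (SE, edgeR adjusted p = 1.9e-10). It was the only one of the 6 members to pass under vehicle, where 35.3% of rows were called, 18.1% as higher in ATF4 KO, and 2.96% were higher in ATF4 KO without overlap. In the windows 37.9% of the 280 rows were called, 83 of them as higher. Mdfic and Osgin2 had been picked for a rise that uses the same wild type vehicle libraries. The Trp53inp1 difference was 1.31 without the lower set and 1.33 with the set as a block. Under vehicle Pnrc1 differed by 0.22 (edgeR adjusted p = 0.11), Gem by 0.19 (adjusted p = 0.48) and Hilpda by 0.04 (adjusted p = 0.84), and with the set as a block the values of Gem and Hilpda were -0.036 and -0.24. Under borrelidin the 2 lines lay closer, at 31.4 ± 5.51 and 36.9 ± 7.52 CPM (n = 12 each), and the log2 difference of 0.23 did not pass (edgeR adjusted p = 0.11).

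Gem (ENSMUSG00000028214, GRCm38 chromosome 4, 11704457 to 11714752, plus strand) was the only tested member that rose in ATF4 KO cells. Its lowest, median and highest levels were 5.68, 10.4 and 16.1 CPM in wild type vehicle and 11.6, 16.1 and 22.0 CPM in wild type borrelidin libraries. In ATF4 KO they were 8.93, 11.7 and 18.6 CPM with vehicle and 6.89, 26.2 and 40.3 CPM with borrelidin. The wild type groups overlapped, and among the treated ATF4 KO libraries 10 of 12 were above every vehicle library while 1, replicate 1, was below them all. The log2 fold change was 0.61 ± 0.19 (SE, edgeR adjusted p = 0.0068) in wild type and 1.06 ± 0.19 (adjusted p = 1.8e-05) in ATF4 KO. The responses differed by -0.45 (95% interval -0.99 to 0.09), which did not pass (edgeR adjusted p = 0.19), and with the library set as a block by -0.75 (-1.31 to -0.20, adjusted p = 0.042). Under that block the wild type response was 0.26 (edgeR adjusted p = 0.42), and without the lower set 0.76 (adjusted p = 0.029). In ATF4 KO the 3 treated lower-set libraries were at 13.3 ± 6.34 CPM (SD) and the 9 higher-set ones at 29.1 ± 7.08 CPM. The response was 0.35 (edgeR adjusted p = 0.53) within the lower set, 3 against 3 libraries, and 1.22 (adjusted p = 2.9e-07) within the higher set. Gem also had the fewest reads of the 6, between 15 and 126 counts in a library.

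Pnrc1 (ENSMUSG00000040128, GRCm38 chromosome 4, 33245423 to 33290163, minus strand), the coactivator, fell with borrelidin in ATF4 KO cells and showed no passing change in wild type. Its lowest, median and highest levels were 52.9, 80.9 and 93.5 CPM in wild type vehicle and 44.6, 74.8 and 110 CPM in wild type borrelidin libraries. In ATF4 KO they were 67.4, 94.8 and 111 CPM with vehicle and 40.7, 51.4 and 77.4 CPM with borrelidin. Treated wild type libraries spread to both sides of the vehicle ones, whereas 11 of 12 treated ATF4 KO libraries were below every vehicle library. The log2 fold change was -0.10 (-0.32 to 0.11, edgeR adjusted p = 0.41) in wild type and -0.78 ± 0.11 (SE, adjusted p = 1.3e-07) in ATF4 KO. The responses differed by 0.67 ± 0.15 (edgeR adjusted p = 6.4e-04). In ATF4 KO the fall was -0.95 in the higher set (edgeR adjusted p = 8.2e-11) and -0.24 (-0.57 to 0.09, adjusted p = 0.36) in the lower set, where vehicle libraries were at 77.6 ± 9.94 CPM and treated ones at 62.9 ± 14.1 CPM (SD, n = 3 each).

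**Figure D2:**
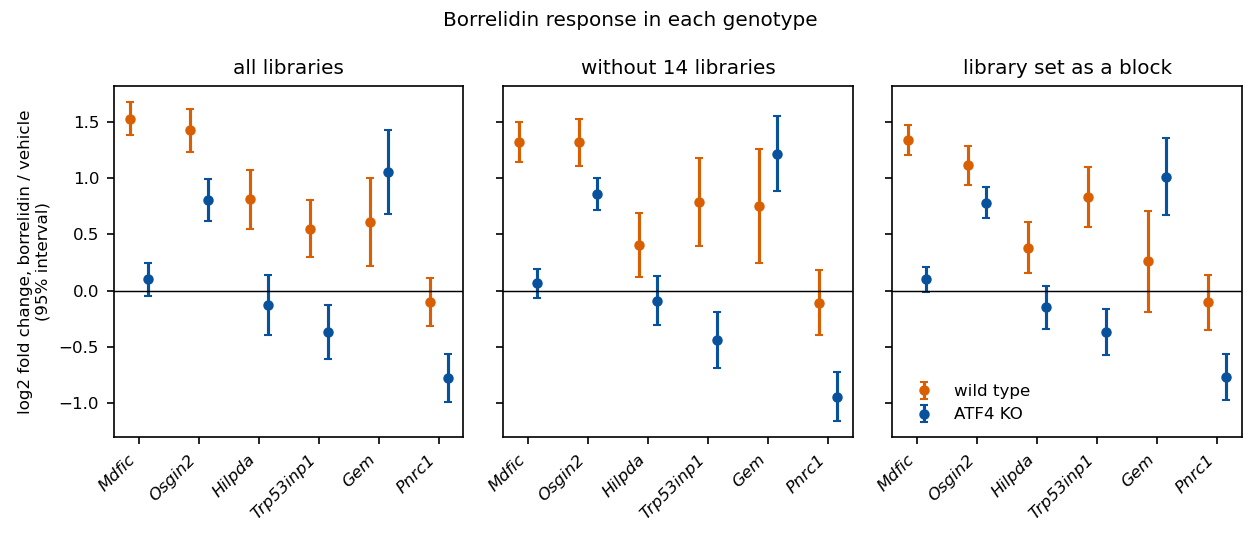
Log2 fold change of borrelidin over vehicle with its 95% interval for each gene in wild type (orange) and ATF4 KO (blue) MEFs, from edgeR, over all libraries (left), without the 14 lower-set libraries (middle) and with the library set as a block (right). Mdfic and Osgin2 have the 2 highest wild type values in each panel, the Hilpda response shrinks from 0.81 to 0.41 and 0.38, and Gem is the gene with the higher value in ATF4 KO. The intervals of Mdfic and Osgin2 do not allow for the choice of these genes by their rise and are not a test.

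Among treated cells, the genotypes differed for 3 of the 4 members not picked for their response, where 49.8% of rows were called, 25.7% as higher and 24.1% as lower in ATF4 KO. In the windows 51.4% of the 280 rows were called, 77 as higher and 67 as lower. These 4 members too were chosen with earlier results of these data known. Hilpda, described above, and Pnrc1 were lower in ATF4 KO, and Gem was higher. Pnrc1 was at 73.4 ± 17.3 CPM (SD, n = 12) in wild type borrelidin and 53.4 ± 9.83 CPM (n = 12) in ATF4 KO borrelidin libraries, a log2 difference of -0.46 ± 0.11 (SE, edgeR adjusted p = 3.1e-04). Gem was at 16.1 ± 3.34 and 25.2 ± 9.76 CPM (SD, n = 12 each), a log2 difference of 0.64 ± 0.18 (SE, edgeR adjusted p = 0.0029). As a description, Mdfic was lower in ATF4 KO by -1.26 (log2, -1.40 to -1.12) with no overlap, as for 6.09% of all tested rows, and Osgin2 by -0.47 (-0.65 to -0.29) with overlap. At 1e-10 edgeR called none of the 4 here and none of the 6 under vehicle, where 5.49% and 2.63% of rows were called. DESeq2 called 1 member in each (Hilpda among treated cells and Trp53inp1 under vehicle), limma voom none, and at an unadjusted p under 0.05 edgeR called 3 in each.

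Levels can be compared between genes per kilobase of exon, with the limit that a row may hold reads of only some of a gene's exons. In wild type vehicle libraries the mean level per kilobase was 37.6 CPM for Pnrc1, 20.5 for Hilpda, 18.0 for Mdfic, 10.3 for Osgin2, 5.02 for Gem and 3.31 for Trp53inp1. With borrelidin in wild type Mdfic came first, at 52.0 CPM per kilobase, ahead of Hilpda at 36.0, Pnrc1 at 35.0 and Osgin2 at 27.8. In ATF4 KO cells with borrelidin Pnrc1 was at 25.5, Mdfic at 21.7, Osgin2 at 20.2 and Hilpda at 19.3 CPM per kilobase, a narrower range than these 4 genes had in treated wild type cells. Gem and Trp53inp1 had the lowest mean level per kilobase in all 4 groups.

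Placed among the 280 tested rows of the windows and ranked from the highest log2 fold change, Mdfic and Osgin2 came 4th and 5th in wild type, by the choice of the members. Hilpda was at rank 31, Gem 56, Trp53inp1 68 and Pnrc1 203. In ATF4 KO Gem came 2nd, Osgin2 was at rank 11, Mdfic 128, Hilpda 197, Trp53inp1 244 and Pnrc1 272. In ATF4 KO Gem and Osgin2 were thus near the top of the window's responses, and Trp53inp1 and Pnrc1 near the bottom. Over the 280 rows the log2 fold change had a median of 0.18 in wild type cells and of 0.06 in ATF4 KO cells, against -0.06 and -0.03 over all 8986 rows.

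**Figure D3:**
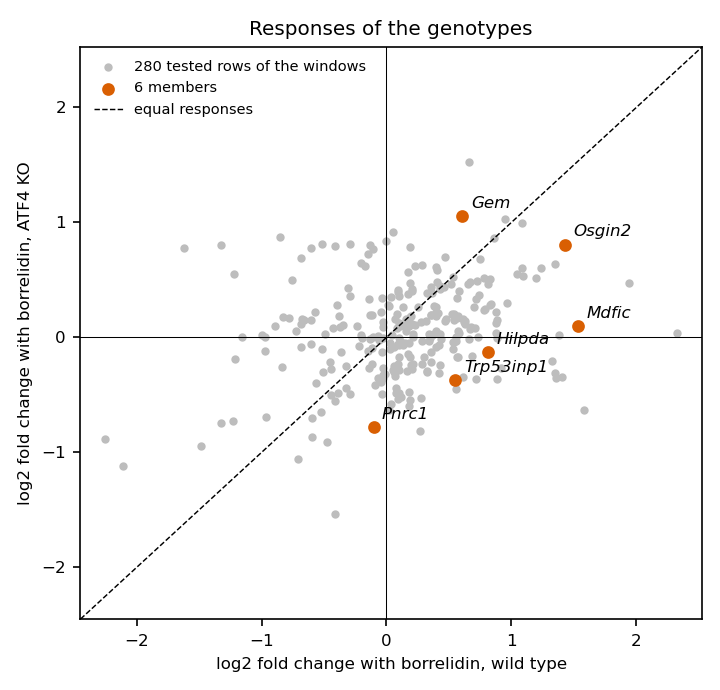
Log2 fold change with borrelidin in wild type (horizontal) against ATF4 KO (vertical) for the 280 tested rows of the 2 chromosome windows (grey) and the 6 members (orange), with the dashed line marking equal responses. Gem is the only member above the line (0.61 and 1.06), Mdfic (1.53 and 0.10) lies farthest below it among the members, and Hilpda, Trp53inp1 and Pnrc1 are below 0 in ATF4 KO (-0.13, -0.37 and -0.78).

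Other genes of the same stress routes were counted in the windows. Over all tested rows the shares called higher and lower were 26.5% and 32.9% in wild type and 15% and 15.3% in ATF4 KO. The nearer background for these counts is the 280 tested rows of the windows. Of these, 117 were called higher and 49 lower in wild type, and 73 and 48 in ATF4 KO. Of 37 ATF4 targets of the integrated stress response none lies in the windows, so no member could be set beside them. Of 30 hypoxia-inducible genes 3 were tested (median log2 fold change -0.41 in wild type and -0.55 in ATF4 KO), and Hilpda was the only one that rose in wild type. Car9, the membrane carbonic anhydrase, fell in wild type by 1.48 ± 0.27 on the log2 scale (SE, edgeR adjusted p = 1.4e-05), from 15.8 ± 6.58 to 5.65 ± 1.69 CPM (SD), and Met, the receptor of hepatocyte growth factor, fell by 0.41 ± 0.09 (SE, adjusted p = 8.6e-05). Both also fell in ATF4 KO over all libraries. Within the ATF4 KO lower set neither Car9 (-0.71, edgeR adjusted p = 0.11) nor Met (-0.31, adjusted p = 0.10) passed. Met was at -0.43 (edgeR adjusted p = 0.059) within the higher set of wild type. Without the lower set Car9 was at -0.53 in wild type and did not pass (edgeR adjusted p = 0.24). Of 32 p53 targets, Trp53inp1 and the transcription factor Klf4 were tested and both rose in wild type. Klf4 rose by 1.35 ± 0.12 in wild type (SE, edgeR adjusted p = 2.4e-13) and by 0.64 ± 0.12 in ATF4 KO (adjusted p = 8.1e-05), where Trp53inp1 fell. Of 30 immediate early genes, Gem, Klf4 and Nr4a3, an orphan nuclear receptor, were tested, and all 3 rose in ATF4 KO over all libraries, against 15% of rows. Within the ATF4 KO lower set, 3 against 3 libraries, Gem (0.35, edgeR adjusted p = 0.53) and Klf4 (0.28, adjusted p = 0.55) did not pass. Nr4a3 was at -0.52 ± 0.26 (SE, edgeR adjusted p = 0.077) in wild type and 0.81 ± 0.26 (adjusted p = 0.013) in ATF4 KO. These values rest on few reads, 373 counts over the 46 libraries, with group means from 1.97 CPM (ATF4 KO vehicle) to 3.42 CPM (wild type vehicle). Without the lower set the wild type value of Nr4a3 was 0.20 (edgeR adjusted p = 0.805). Osgin2 was the only one of 23 oxidative stress genes in the windows.

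Of 18 autophagy and lysosomal stress genes 4 were tested, and 2 rose in wild type, Trp53inp1 and C9orf72. C9orf72, which regulates endosomal and autophagic traffic, went from 60.8 ± 13.5 CPM (SD) to a mean of 233 CPM in wild type, a rise of 1.94 ± 0.11 on the log2 scale (SE, edgeR adjusted p = 1.4e-19), and rose by 0.48 ± 0.11 (adjusted p = 8.4e-04) in ATF4 KO. It was at 0.18 (edgeR adjusted p = 0.36) within the ATF4 KO lower set. Stx17, the autophagosomal syntaxin, rose by 0.19 ± 0.06 in ATF4 KO (SE, edgeR adjusted p = 0.013), and was at 0.30 (adjusted p = 0.077) within the ATF4 KO lower set. Rragd, a lysosomal GTPase of the mTORC1 pathway, passed in neither genotype over all libraries, and was at 0.85 in wild type without the lower set. Of 23 endoplasmic reticulum stress genes 4 were tested (median 0.48 in wild type and -0.08 in ATF4 KO). All of these, Sec61b, Erp44, Calu and Creb3, rose in wild type over all libraries, against 26.5% of rows, but without the lower set none of the 4 passed, and under the block on library set the values of Sec61b, Calu and Creb3 were -0.12, -0.014 and -0.11. Erp44 still passed under that block (0.19, edgeR adjusted p = 0.022). In ATF4 KO over all libraries Creb3 rose by 0.63 ± 0.10 (SE, edgeR adjusted p = 3.9e-06), Calu fell by 0.23 ± 0.07 (adjusted p = 0.011), and Sec61b and Erp44 did not pass. Within the ATF4 KO lower set Creb3 was at 0.49 (edgeR adjusted p = 0.0115) and Calu at 0.018 (adjusted p = 0.93). The Creb3 responses differed by -0.35 (edgeR adjusted p = 0.057), and by -0.62 (adjusted p = 3.1e-05) without the lower set. Of 19 cytosolic chaperone genes 3 were tested. The Hsp70 co-factor Bag1 rose in wild type over all libraries (0.54, edgeR adjusted p = 0.0020) but was at -0.10 without the lower set, and Dnajb5 fell by 0.83 ± 0.09 (SE, adjusted p = 5.4e-10). Dnajb5 was at -0.36 (edgeR adjusted p = 0.030) without the lower set and at -0.37 (adjusted p = 0.057) within the higher set of wild type. Dnaja1, an Hsp40 co-chaperone, fell by 0.33 ± 0.11 in ATF4 KO (SE, edgeR adjusted p = 0.015), and in wild type was at 0.07 over all libraries and -0.41 without the lower set. Of 17 innate immune and NF-kB stress genes 4 were tested, and 3, Ddx58, Irf5 and Ripk2, rose in ATF4 KO, against 15% of rows. Within the ATF4 KO lower set Irf5 (0.17, edgeR adjusted p = 0.37) and Ripk2 (0.10, adjusted p = 0.62) did not pass. Map3k7, the kinase TAK1, rose in wild type over all libraries (0.32, edgeR adjusted p = 3.0e-04) and was at 0.097 (adjusted p = 0.42) without the lower set. Ddx58, which encodes the RNA sensor RIG-I, fell by 0.86 ± 0.13 in wild type (SE, edgeR adjusted p = 2.7e-07) and rose by 0.87 ± 0.12 in ATF4 KO (adjusted p = 3.3e-07), where its vehicle level was already 1440 ± 235 CPM (SD) against 219 ± 70.8 CPM in wild type. Its wild type value was -0.09 (edgeR adjusted p = 0.69) without the lower set. Of the mesenchymal markers, Cav1 fell by 0.59 ± 0.07 in wild type (SE, edgeR adjusted p = 8.7e-10) and by 0.70 ± 0.07 in ATF4 KO (adjusted p = 2.8e-11), and Cav2 fell by 0.60 and 0.87. Reck fell by 0.76 ± 0.15 in wild type (SE, edgeR adjusted p = 3.6e-05), where it was at 0.11 without the lower set, and rose by 0.50 ± 0.14 in ATF4 KO (adjusted p = 0.0065). Tgfbr1 (0.16 and 0.11) and Mest (0.21 and 0.03) passed in neither genotype, and the 5 markers had a median of -0.59 in wild type cells and of 0.03 in ATF4 KO cells. Of the markers of other cell types, Ptprz1 (0.55 and -0.03) and Cnr1 (0.63 and 0.14) passed in neither genotype, and Pax5 was at -1.33 (adjusted p = 0.22) in wild type and rose by 0.81 ± 0.26 (SE, edgeR adjusted p = 0.015) in ATF4 KO. Within the ATF4 KO lower set Pax5 was at 0.27 (edgeR adjusted p = 0.63).

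The genes most like each member across the 46 libraries, by Pearson's r of log2 CPM among the 280 tested rows, are given as a description, since all points share the same 4 groups and library sets. C9orf72 was the nearest to both Mdfic (r = 0.961) and Osgin2 (r = 0.907). Next to Mdfic came Ncbp1 at 0.877 and Anp32b at 0.873, and next to Osgin2 came Rars2 at 0.863 and Mrpl50 at 0.856. Hilpda was nearest to Anp32b (0.884), Polr1e (0.873) and Ncbp1 (0.867), so that Mdfic and Hilpda shared 2 of their 3 nearest genes. The values were lower for Gem (Tmem209, 0.75, Smim8, 0.74, and Aptx, 0.69), for Pnrc1 (Ubap2, 0.701, Impdh1, 0.636, and Tspan12, 0.616) and for Trp53inp1 (Gm42547, 0.623, Nsmaf, 0.592, and Ufl1, 0.577).

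Between members, r over the 46 libraries was 0.84 for Mdfic with Osgin2, 0.78 for Mdfic with Hilpda and 0.60 for Osgin2 with Hilpda. After subtracting the mean of each group and library set these values were 0.42, -0.23 and -0.38, so the values with Hilpda were positive only with the group and set means left in. The value for Mdfic with Osgin2 was 0.23 without wild type borrelidin replicate 5, which had the lowest Mdfic (293 CPM) and Osgin2 (115 CPM) levels and the highest Hilpda (53.2 CPM) and Pnrc1 (110 CPM) levels of its group.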

How the data were processed

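The 46 libraries of wild type and ATF4 KO mouse embryonic fibroblasts were grouped by genotype and treatment as labelled. The deposited table held raw counts per Ensembl gene identifier; the authors trimmed reads with fastp, and HISAT2, HTSeq, limma and the mm10 build are listed in the processing notes, while the study's methods give featureCounts as the counter. Versions were not given in the sources used here. All 46 columns were mapped to samples. The 5 rows that name no gene were left out; on average 69% of reads were in no feature, 10.8% were not aligned, 5.09% had low alignment quality, 3.97% aligned at several places and 0.25% were ambiguous.

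Members were matched by identifier to GENCODE M21. Members and lists were chosen with earlier results of these data known. Row identifiers were checked against genes by their levels (r = 0.964 over 24 genes in the windows, 0.143 over 1790 elsewhere; the windows had been set on such levels). Counts were filtered with filterByExpr, scaled by TMM and fitted with 4 group means in edgeR 4.0.16 (R 4.3.3; glmQLFit, glmQLFTest). Calls were made at an adjusted p under 0.05, all tests being two-sided. The study's own linear model has no term for a response in ATF4 KO and was an alternative, beside other normalization, no filter, DESeq2 1.42.0, limma voom 3.58.1, blocks and subsets of libraries. The genes named were the 6 members, the genes of 11 lists in the windows that passed the filter, and the 3 genes most like each member; 1 list gene is not reported here. Library sets came from the widest gap on principal component 2 (21.9% of the variance of 500 rows) where it was over 50% of a group's range. Libraries of the same number in the 2 ATF4 KO groups had correlated deviations from the group mean (all 11 pairs, r = 0.18 to 0.78). Between other groups r ran from -0.36 to 0.50. Numbers 1 to 3 made up the lower set in both ATF4 KO groups, so this check cannot show a pairing by number. No pair of libraries agreed within sampling noise. The fits were tested on simulated counts drawn with a single spread and no library sets. That test cannot bear on how the sets change a result.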

Additional observations from a re-analysis of the deposited data

Results flagged for a closer look

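Responses to borrelidin that differed between the genotypes by the edgeR test of the difference (wild type minus ATF4 KO, log2, adjusted p under 0.05) were 17 among the genes described, 3 of them members: Trp53inp1 at 0.92, Hilpda at 0.94 and Pnrc1 at 0.67. Among the other stress genes the wild type response was the higher for Klf4 by 0.71, C9orf72 by 1.47, Sec61b by 1.24, Erp44 by 0.60, Bag1 by 0.58, Calu by 0.45 and Dnaja1 by 0.40. The ATF4 KO response was the higher one for Nr4a3 (-1.33), Dnajb5 (-1.01), Ddx58 (-1.73), Irf5 (-0.86), Ripk2 (-0.37), Stx17 (-0.33) and the mesenchymal marker Reck (-1.26). Over all tested rows the difference passed for 33.6%, and over the 280 tested rows of the windows for 42.9%. Without the lower set 9 of the 17 still passed, and Hilpda, Nr4a3, Dnaja1, Bag1, Sec61b, Erp44, Stx17 and Reck did not. With the library set as a block 12 of the 17 still passed, and Dnaja1, Bag1, Sec61b, Erp44 and Stx17 did not.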

How the results depend on the processing

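Of 324 values of the members under the alternatives, 308 kept their side of the threshold or, where no test was made, their direction within the spread. None reversed as a called value. Uncalled values could change sign and still count as kept. Under vehicle the genotype differences of Osgin2, Gem and Hilpda did so with the set as a block. The number of members called in a comparison changed by 1 with no filter (ATF4 KO, 2), with the set as a block (wild type 2, difference 4) and without the lower set (difference 2). It fell in wild type from 3 to 1 within the higher set, in ATF4 KO from 3 to 0 within the lower set, and at an adjusted p under 1e-10 to 0 in all 5 comparisons. Leaving out wild type borrelidin replicate 5 or 10, an alternative chosen after seeing the data, changed no count of members called.

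Over all rows, the wild type response was called for 5337 rows, for 1661 without the lower set, 2681 with the set as a block, 1154 within the higher set and 190 at 1e-10. The ATF4 KO response was called for 2721 rows, for 738 within the lower set, 4119 within the higher set and 44 at 1e-10. The difference was called for 3022 rows, for 880 without the lower set, 1829 with the set as a block and 45 at 1e-10. Between genotypes under vehicle 3172 rows were called, 1881 without the lower set and 236 at 1e-10, and under borrelidin 4474 and 493. Some of these alternatives use fewer libraries, and the cause of the changes was not tested.

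With the replicate block 5448, 2999, 3649, 3794 and 4680 rows were called in the 5 comparisons, and no call on a member changed. Between other groups than the ATF4 KO pair, 2 to 6 pairs with the same number deviated together (r over 0.1). The block on replicate number in the 2 ATF4 KO groups alone, added after seeing the data, called 3728 rows there, with Gem at 1.02, Pnrc1 at -0.79 and Trp53inp1 at -0.37.

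Reversals were in list genes. In wild type Dnaja1 was at -0.41, -0.34 and -0.42 (without the lower set, set as a block, within the higher set), Bag1 at -0.10, -0.038 and -0.11, Rragd at 0.85 without the lower set and 0.84 within the higher set, and Reck at 0.11 and 0.10 likewise. With the block Sec61b was at -0.12, Calu -0.014 and Creb3 -0.11, and within the higher set Sec61b was at -0.0064. Within the ATF4 KO lower set Dnaja1 was at 0.030 and Calu at 0.0181. The difference was -0.0207 for Dnaja1 with the block and -0.047 for Bag1 without the lower set. The cause was not tested. Fits of the compared groups alone give no other value for the difference, since it uses all 4 groups. Among the members, the low counts of Gem and Hilpda limit their single values most.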
